A study of Mus musculus with 4 samples.

Results

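Cell cycle and DNA replication genes were read from 4 Affymetrix mouse arrays of pooled liver RNA. A list of 35 genes was taken by symbol, and 34 of them had a probe set carrying that symbol alone among 18193 genes so named on the array. Ccnb1, a mitotic cyclin, had none, so that its signal is not analysed here, while its promoter is counted in the motif search below. Each gene is represented by its brightest probe set (a group of short probes against 1 transcript), and the genes are described in 3 sets: 11 regulators of G1, 10 genes of DNA replication and 13 measured genes of G2 and mitosis.

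All mice carried a floxed Met gene and a tamoxifen-inducible Cre, labelled Metff/ff:ERCre+/+. The delta MET + EGFRi group, called treated here, received tamoxifen for 5 days to remove exon 16 of Met, then rested for 4 days, and was then fed canertinib, an inhibitor of the kinase of EGFR, at an intended 80 mg/kg/day. The control group consisted of littermates given only the corn oil vehicle. Livers were taken at day 7 or day 10, counted from the start of canertinib, and each array holds the pooled RNA of 1 group on 1 day, so that there were 2 arrays per group. The inhibition was systemic. The promoter driving Cre, the ages and the number of animals per pool are not given in the sources used here, and the effects of tamoxifen, Met deletion and canertinib cannot be told apart. A pool carries no spread between animals, and p-values measure only the spread between these arrays, days included.

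Adult hepatocytes rest outside the cell cycle and can re-enter it after injury. Growth factors such as hepatocyte growth factor and the EGFR ligands, acting through MET and EGFR, raise cyclin D1 in G1. Cyclin D with CDK4 or CDK6, and then cyclin E with CDK2, release E2F factors, which switch on replication genes such as the MCM helicase, PCNA and ribonucleotide reductase. Cyclin B with CDK1 drives mitosis, and many mitotic genes are kept silent in resting cells by the DREAM complex, which binds CHR elements in their promoters. CCAAT elements there are bound by the activator NF-Y.

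Met itself read 976 and 1271 in the control arrays of day 7 and day 10 and 2433 and 2829 in the treated arrays, and was not lower. Where its probes lie relative to the deleted exon was not used here, so that this checks nothing about the deletion. Egfr read 5664 and 9707 in control and 6686 and 7720 in treated livers. Median signals of the arrays ran from 210.5 to 223.9, and Pearson's r between array pairs, over log2 signals, lay between 0.923 and 0.948. The hepatocyte gene Alb read 71295 to 78532 on all arrays.

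Promoters were searched for known cell cycle elements, and those of 5 genes are given here from RefSeq (GRCm38.p6). Each is the 120 bases directly before the annotated start, 5′ to 3′ on the gene's own strand, which is the minus strand in all 5. Capitals mark the motifs searched on both strands, which were TTTGAA (the CHR element), CCAAT, and the E2F site cores TTTGGCG and TTTCCCG, so that ATTGG and TTCAAA are matches on the other strand. Ccne1 is shown as the measured gene with the largest difference over both days among those above 200 on every array and holds no match in this window, Mcm6 is shown for its E2F cores, and Cdk1, Cdc20 and Top2a for mitotic genes with CHR and CCAAT matches.
Ccne1, chr7:38107491-38107610: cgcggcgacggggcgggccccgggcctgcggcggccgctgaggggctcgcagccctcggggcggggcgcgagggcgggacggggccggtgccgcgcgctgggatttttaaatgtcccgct
Mcm6, chr1:128359706-128359825: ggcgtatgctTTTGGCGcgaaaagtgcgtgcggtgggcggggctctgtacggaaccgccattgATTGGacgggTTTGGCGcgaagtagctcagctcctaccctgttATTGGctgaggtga
Cdk1, chr10:69352913-69353032: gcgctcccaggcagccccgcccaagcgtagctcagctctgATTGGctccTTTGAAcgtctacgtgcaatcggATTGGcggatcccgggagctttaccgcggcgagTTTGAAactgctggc
Cdc20, chr4:118437344-118437463: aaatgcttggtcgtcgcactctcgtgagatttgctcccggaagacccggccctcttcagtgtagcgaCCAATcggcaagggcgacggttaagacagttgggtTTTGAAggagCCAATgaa
Top2a, chr11:99024190-99024309: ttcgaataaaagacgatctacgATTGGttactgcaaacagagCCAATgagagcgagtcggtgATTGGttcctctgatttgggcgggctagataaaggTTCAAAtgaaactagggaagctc

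Of the 35 genes, 28 had at least 1 promoter in the table, 31 promoters in all. Ccnd1, Ccnd2, Ccne2, Mcm4, Ccna2, Aurkb and Foxm1 had no entry. In the 250 bases before the start, TTTGAA was found in 5 of 11 promoters of the mitotic set, 1 of 10 of the replication set and 0 of 10 of the G1 set, against 16% of all 32851 promoters. CCAAT was found in 10 of 11 mitotic, 9 of 10 replication and 3 of 10 G1 promoters, against 33.8% of all promoters. An E2F core was found in 1 of 11, 3 of 10 and 1 of 10, against 3.92%. No matches overlapped each other, and a match describes letters only.

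The 3 sets differed in how many genes had a clear signal. A signal of 200 lies close to the median probe set, and 58% of all named genes were above it on all 4 arrays. In the G1 set 9 of 11 genes were above 200 on every array, in the replication set 8 of 10, and in the mitotic set 4 of 13. The mitotic genes above 200 throughout were Foxm1, Ccna2, Cdc20 and Aurka. A signal of 200 was never reached by 10 genes, against 23.3% of all named genes: Ccne2, Mcm6, Tyms, Ccnb2, Cdk1, Mki67, Plk1, Bub1, Bub1b and Birc5. E2f1, Top2a and Aurkb were above it on some arrays only. Ccnb2 lay at or under the floor of 64.7, below which signals are taken as having no order, on all 4 arrays. Signals of different probe sets depend on the probes, so that these levels rank no gene against another.

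**Figure D1:**
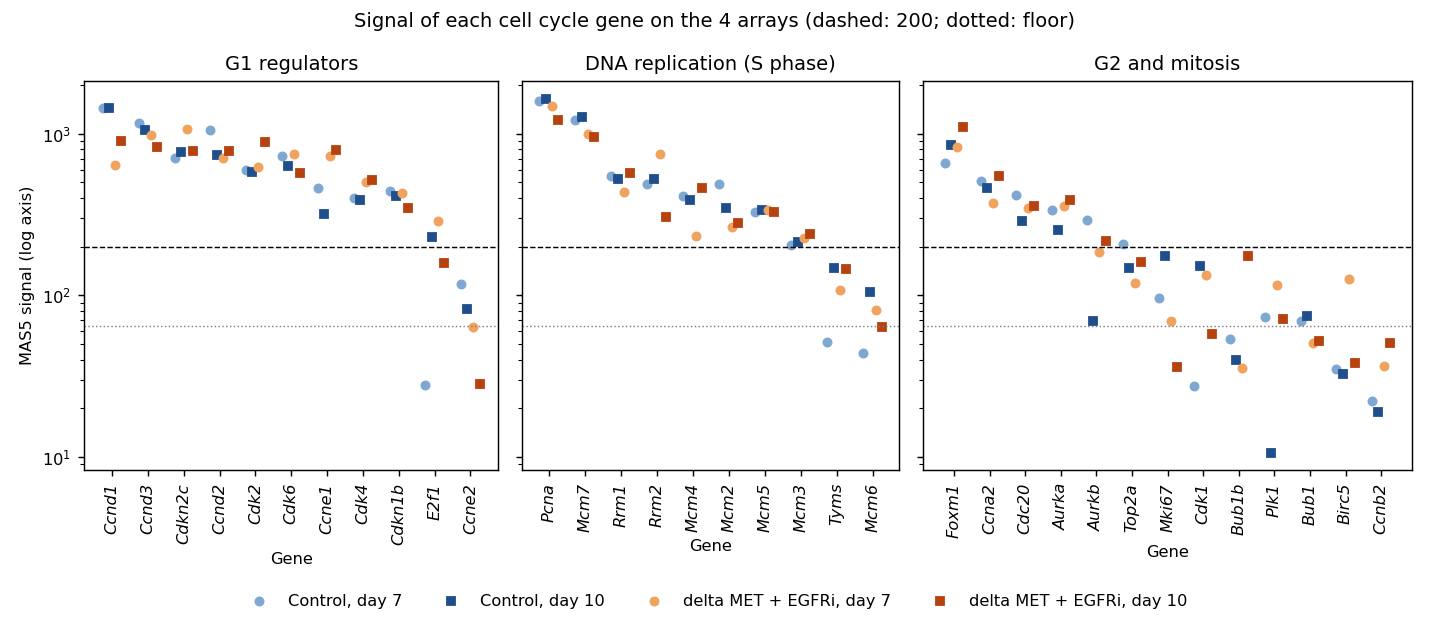
MAS5 signal (log axis) of each of the 34 measured genes on the 4 arrays, in 3 panels by phase and sorted by mean signal. Most G1 and replication genes lie above the dashed line at 200 on all arrays, whereas 9 of the 13 mitotic genes are at or below it on at least 1 array.

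Of widely used proliferation markers, Mki67, Top2a and Cdk1 were dim in both groups, whereas Pcna read 1209 to 1648. Mki67, the Ki-67 proliferation antigen, read 95.6 and 174 in the control arrays of day 7 and day 10 and 69.4 and 36.0 in the treated arrays. Top2a, the topoisomerase that untangles replicated chromosomes, read 208 and 148 in control and 120 and 162 in treated livers. Cdk1, the kinase of mitotic entry, read 27.5 and 153 in control against 133 and 57.6 in treated livers. The treated arrays were both below the control arrays for Mki67, while the groups overlapped for Top2a and Cdk1.

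Over both days 0 of the 21 listed genes that lay above the filter on dim genes passed limma's test, at adjusted p from 0.217 to 0.997. All 21 were above 200 on every array, so that none entered through only 1 group. Over all 11993 genes tested, 0.659% passed, 0.375% higher and 0.283% lower in treated livers. At an unadjusted p under 0.05 there were 2 of the 21, against 12.1% of all genes tested. These were Ccne1, which was higher (5.93% of all genes), and Ccnd1, which was lower (6.15%). The standard errors of the 21 log2 differences ran from 0.20 to 0.43, which sets the size of change these arrays could show. With 2 arrays against 2, an exact permutation test of a single gene cannot give a two-sided p below 0.333 and was not used.

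Among the G1 genes above the filter, cyclin D1 was furthest below control over both days, without passing the test. Ccnd1 encodes the D-type cyclin that growth factor signalling induces. Its signal was 1448 and 1436 in control livers at day 7 and day 10, and 642 and 896 in treated livers. Both treated arrays were below both control arrays, and the control arrays were nearly equal. The fold was 2.25 lower at day 7 and 1.60 lower at day 10, and the log2 difference over both days was -0.93 ± 0.24 (SE; limma adjusted p = 0.217). Leaving out an array gave adjusted p of 0.0560 (-1.17, without treated day 10), 0.238 (-0.69, without treated day 7), and 0.606 and 0.604 without the control of day 7 or day 10. In such fits the lone array of a group is assumed to vary like the pair of the other group.

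A further probe set of Ccnd1 gave a larger difference. It read 516 and 748 in control and 163 and 260 in treated livers, a log2 difference of -1.59 ± 0.36 (limma over probe sets, adjusted p = 0.172). The dimmest of the 3 read 231 and 352 in control against 269 and 73.5 in treated livers and so had opposite signs at day 7 and day 10. Only the first of these 3 was above 200 on every array.

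Cyclin E1 lay in the opposite direction. Ccne1 encodes the partner of CDK2 at the entry into S phase. It read 459 and 320 in control livers and 731 and 796 in treated livers, so that the groups did not overlap. The fold was 1.59 at day 7 and 2.49 at day 10, with a log2 difference of 0.99 ± 0.27 (adjusted p = 0.231). The brightest Ccne1 probe set carries the suffix _x_at, by which Affymetrix marks probes that may bind other transcripts. The other probe set was dimmer, at 47.1 and 158 in control and 217 and 192 in treated livers, also without overlap.

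**Figure D2:**
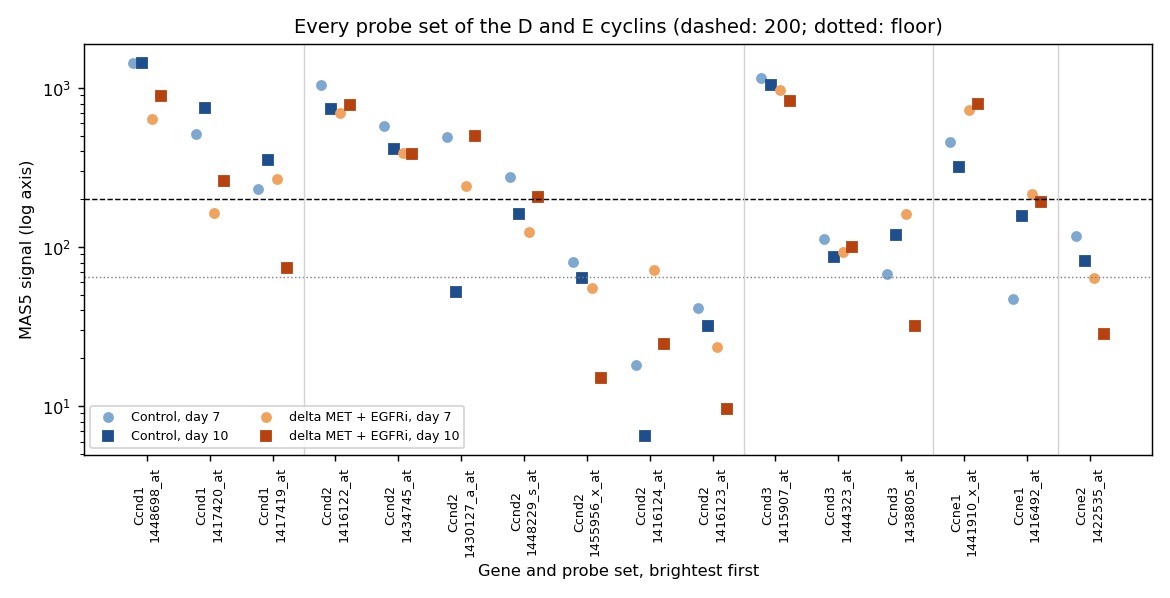
MAS5 signal (log axis) of every probe set of the D and E cyclins on the 4 arrays, brightest first within a gene. The first Ccnd1 probe sets read lower in treated livers (642 and 896 against 1448 and 1436 for the brightest), both Ccne1 probe sets read higher, and the dimmer probe sets scatter.

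The other D and E cyclins lay closer to control or were dim. Ccnd3 read 1164 and 1054 in control and 978 and 832 in treated livers, without overlap, a log2 difference of -0.30 ± 0.21 (adjusted p = 0.631). Ccnd2 read 1051 and 738 in control and 703 and 785 in treated livers, and the groups overlapped. For Ccne2 the control arrays read 117 and 82.2 and the treated arrays 63.7 and 28.4, so that it was at least 1.81-fold lower at day 7 and at least 1.27-fold at day 10. Its log2 difference over both days was -0.60 with the floor and -1.21 with none, the latter further from 0 than that of Ccnd1.

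The kinases of G1 differed little. Cdk4, the partner of the D cyclins, read 402 and 391 in control and 501 and 520 in treated livers. These did not overlap, at a log2 difference of 0.36 ± 0.24 (adjusted p = 0.595), and the other Cdk4 probe sets gave 0.47 and 0.49. Cdk2, which binds cyclin E and cyclin A, read 599 and 577 in control and 625 and 892 in treated livers, without overlap (0.34 ± 0.25, adjusted p = 0.639). Cdk6, the related D cyclin kinase, gave -0.06 ± 0.24 with overlapping groups.

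Inhibitors and the E2F factor completed the G1 set. Cdkn1b, which encodes the inhibitor p27, read 443 and 412 in control and 430 and 349 in treated livers and overlapped. Cdkn2c, which encodes the CDK4 and CDK6 inhibitor p18, read 709 and 771 in control and 1067 and 781 in treated livers (0.30 ± 0.24, adjusted p = 0.667), with the treated array of day 10 close to control. E2f1, an activating E2F, read 27.9 and 230 in control and 287 and 160 in treated livers. Its control arrays were themselves further apart than its treated arrays, so that a fold of at least 4.43 at day 7 stood beside 1.44-fold lower at day 10. The median log2 difference of the 11 G1 genes was 0.03 at day 7 and -0.14 at day 10, and that of all named genes was 0 on both days.

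No replication gene passed the test, and their differences pointed both ways. Pcna, the sliding clamp of DNA polymerase, read 1584 and 1648 in control and 1487 and 1209 in treated livers. Its log2 difference was -0.27 ± 0.22 (adjusted p = 0.669), and the groups did not overlap. Among the 6 MCM helicase subunits, Mcm7 read 1212 and 1262 in control against 999 and 950 in treated livers, a log2 difference of -0.34 ± 0.20 (adjusted p = 0.554). The other Mcm7 probe sets, all above the filter, lay closer to 0, at -0.23, 0.16 and -0.02. Mcm2 read 490 and 349 in control and 263 and 281 in treated livers, log2 differences of -0.90 at day 7 and -0.31 at day 10. Mcm2 had the largest difference of the replication set over both days (-0.60 ± 0.31, adjusted p = 0.508), and its other probe set gave -0.17.

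The remaining helicase subunits were not lower on both days. Mcm5 read 327 and 339 in control and 336 and 328 in treated livers, a log2 difference of -0.01 ± 0.28. Mcm3 was 1.11-fold higher on both days, at signals from 204 to 238. Mcm4 read 413 and 389 in control and 231 and 463 in treated livers, so that the treated arrays lay on either side of control. Mcm6, whose promoter is printed above with its E2F cores, read at most 104 on any array, and its groups overlapped.

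Enzymes of nucleotide supply showed no common direction. Rrm1, the large subunit of ribonucleotide reductase, read 547 and 524 in control and 436 and 568 in treated livers. Rrm2, the small subunit made in S phase, read 485 and 528 in control and 752 and 304 in treated livers, a spread between the treated arrays that exceeds the distance to control. This probe set also carries the suffix _x_at. Another Rrm2 probe set, under the filter, read 59.5 and 65.9 in control and 268 and 176 in treated livers, higher on both days without overlap. The remaining Rrm2 probe set, also under the filter, read 86.5 and 121 in control and 251 and 18.5 in treated livers. Tyms, thymidylate synthase, never exceeded 147. Day 7 gave a median log2 difference of -0.03 over the replication set, and day 10 gave -0.18. None of its 10 genes passed 2-fold on either day.

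Among mitotic genes with a clear signal, none passed the test. Foxm1, a transcription factor of the G2 programme, read 663 and 850 in control and 830 and 1101 in treated livers, a log2 difference of 0.35 ± 0.25 (adjusted p = 0.631) with overlap. Aurka, a spindle pole kinase, read 336 and 255 in control and 358 and 388 in treated livers and did not overlap, at 0.35 ± 0.31 (adjusted p = 0.697). Ccna2, cyclin A of S phase and G2, gave -0.10 ± 0.28. Cdc20, the activator of the anaphase-promoting complex, gave 0.02 ± 0.31.

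The dim mitotic genes scattered. Aurkb, the kinase of the chromosomal passenger complex, read 293 and 68.8 in control and 185 and 218 in treated livers. Its partner Birc5 (survivin) read 34.8 and 32.7 in control and 126 and 37.8 in treated livers. Plk1, a mitotic kinase, read 73.5 and 10.6 in control and 116 and 71.5 in treated livers. The control array of day 10 stood apart for Aurkb and the treated array of day 7 for Birc5, while the groups overlapped for Aurkb and Plk1.

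The spindle checkpoint kinases stayed near the floor. Bub1 read 69.0 and 74.8 in control and 50.4 and 51.8 in treated livers. Bub1b lay under the floor on 3 arrays and read 175 in the treated liver of day 10. Ccnb2, a mitotic cyclin, ranged from 19.0 to 50.6. The median log2 difference of the 13 mitotic genes was 0.00 at day 7 and 0.14 at day 10. Over both days it was 0.02, and 0.35 when no floor was set, since the dimmest genes then count at their own values.

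**Figure D3:**
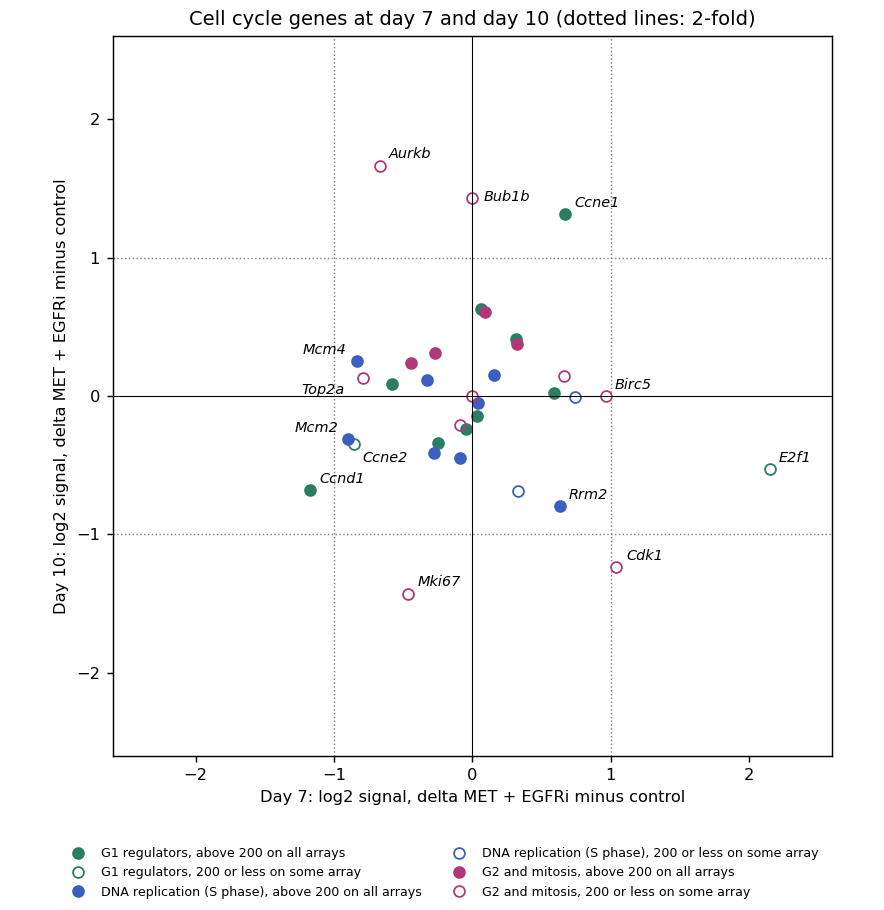
Log2 signal difference, treated minus control, at day 7 (x axis) and day 10 (y axis) for the 34 measured genes, with signals under 64.7 set to it and dotted lines at 2-fold. Ccnd1 (-1.17, -0.68) and Ccne1 (0.67, 1.32) are the filled points past 2-fold on a day, and the other points past 2-fold are open, at or under 200 on some array.

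Taking each day alone, with 1 array per side and no test, 2 of 34 genes were over 2-fold higher and 1 lower at day 7. These were E2f1 and Cdk1, and Ccnd1. All named genes gave 6.05% higher and 6.78% lower. At day 10, 3 of 34 were higher (Ccne1, Aurkb and Bub1b) and 2 lower (Cdk1 and Mki67), against 7.38% and 6.22%. These shares are close to those of all genes. Cdk1 alone was past 2-fold in opposite directions on the 2 days, against 1.09%. No listed gene was over 2-fold apart in 1 direction on both days, against 3.16% of all named genes. Of the 7 genes past 2-fold on a day, 5 were not above 200 on all arrays. The treated arrays lay both above both control arrays in 8 genes and both below in 8, against 19.6% and 22.3% of all named genes. These counts use signals without the floor. The 8 higher genes include Ccnb2, which was under the floor throughout, and Birc5, which was above it only in the treated array of day 7. With the floor neither would be apart. The 8 lower genes include Ccne2 and Bub1, whose treated arrays were both under the floor and whose control arrays were above it.

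Arrays of the same group differed about as often. Between the control arrays of day 7 and day 10, 4 of 34 genes were over 2-fold apart (E2f1, Tyms, Cdk1 and Aurkb), against 8.78% of all named genes. Between the treated arrays there were also 4 (Mcm4, Rrm2, Cdk1 and Bub1b), against 10.9%. Across all genes the share between control arrays was 2.41% for genes above 200 on all arrays and 17.6% for the rest. None of the 4 genes that differed between the control arrays was above 200 throughout.

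Wider lists of the same phases held no gene past the test either. Of 110 further cell cycle genes 108 were measured and 72 lay above the filter. Of these 0 passed limma's test. At an unadjusted p under 0.05 only Cdkn1a was higher and 6 genes were lower, against 5.93% and 6.15% of all genes tested. The wider G1 list had a median of -0.05 at day 7 and -0.07 at day 10 over 25 genes. Over 41 replication genes the medians were -0.08 and -0.18, and over 42 mitotic genes -0.22 and 0.00. On both days 7 genes of the G1 list were higher and 9 lower, 5 and 15 of the replication list, and 6 and 11 of the mitotic list. All named genes gave 22.9% higher and 26.4% lower on both days.

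**Figure D4:**
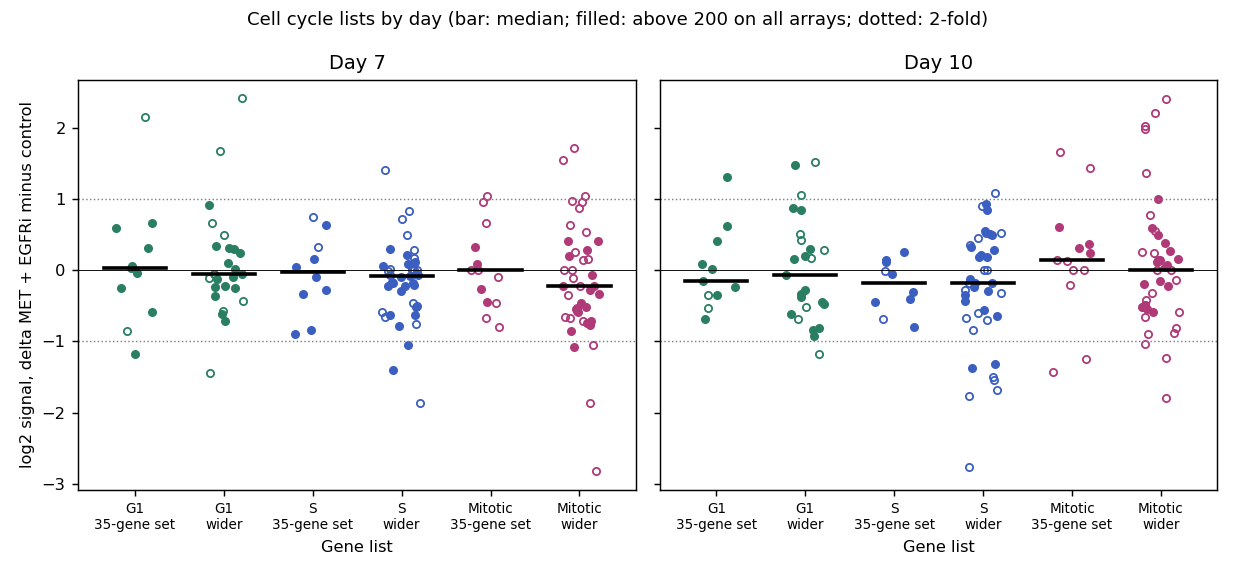
Log2 signal difference, treated minus control, of each gene in the 35-gene sets and the wider lists, at day 7 (left) and day 10 (right), with bars at the medians and open points for genes at or under 200 on some array. The medians lie between -0.22 and 0.14, and most points past the dotted 2-fold lines are open.

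In the wider G1 list the inhibitor Cdkn1a and the cyclin-like Ccng1, both known targets of p53, lay in opposite directions. Cdkn1a, which encodes p21, read 350 and 514 in control and 660 and 1435 in treated livers, a log2 difference of 1.20 ± 0.41 (adjusted p = 0.330). Leaving out an array gave 1.76 without treated day 7 (adjusted p = 0.0184), 0.64 without treated day 10 (0.480), 0.92 without control day 7 (0.775) and 1.47 without control day 10 (0.579), again with a lone array in a group. The other Cdkn1a probe set read 19.1 and 388 in control and 547 and 1606 in treated livers, with the day 7 control under the floor. It gave a log2 difference of 2.56 ± 0.88 (limma over probe sets, adjusted p = 0.348). In control livers this probe set was on average under the filter level, so that it was tested only through treated livers. Ccng1 read 1041 and 1202 in control and 636 and 688 in treated livers (-0.76 ± 0.21, adjusted p = 0.247), and its other probe sets gave -0.66 and -1.05. Both genes' groups were apart. The phosphatase gene Cdc25a gave 0.61, the inhibitor gene Cdkn2d 0.30, Cks1b, a CDK-binding subunit, -0.60, and E2f3 -0.56, at adjusted p from 0.420 to 0.703.

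Mcm10, which joins the helicase to the polymerase, came closest to the threshold. It read 4723 and 4795 in control and 1787 and 1932 in treated livers, 2.64-fold lower at day 7 and 2.48-fold at day 10 (log2 difference -1.36 ± 0.20, adjusted p = 0.0506). Its adjusted p was 0.0489 with quantile normalization and 0.148 with day as a block. It was 0.0138 and 0.0125 without the treated array of day 7 or day 10, and 0.304 and 0.331 without the control array of day 7 or day 10. Another Mcm10 probe set, at 336 and 354 in control and 210 and 226 in treated livers, gave -0.66 (limma over probe sets, adjusted p = 0.489). The dimmest read 49.7 and 37.8 in control against 96.5 and 244 in treated livers. The mean of the 3 gave -0.26.

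Other replication genes named by the same rule were the GINS subunits Gins3 (-1.76 ± 0.56, adjusted p = 0.296) and Gins4 (-0.95 ± 0.29, adjusted p = 0.277), components of the replicative helicase. Gins3 read 289 and 558 in control and 171 and 81.9 in treated livers. Its treated arrays were on average under the filter level. It was therefore tested only through its signals in control livers. Another Gins3 probe set gave 0.93. Highest in that list by the smaller daily difference, among genes higher on both days with a mean signal above 200, were Chaf1b of the chromatin assembly factor (0.64), Orc3 of the origin recognition complex (0.49) and the clamp loader Rfc1 (0.30), at adjusted p from 0.570 to 0.692. Another Rfc1 probe set gave -0.29. Chaf1b read 137 and 287 in control livers, on average under the filter level, so that it was tested only through its signals in treated livers.

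In the wider mitotic list Spc24, a kinetochore subunit, read 822 and 404 in control and 226 and 172 in treated livers. Its log2 difference was -1.55 ± 0.42 (adjusted p = 0.231). Its treated arrays were on average under the filter level, so that Spc24 was tested only through its signals in control livers. The centrosome kinase gene Nek2 gave -0.70 (adjusted p = 0.309) and the spindle motor gene Kif11, under the filter, -0.70. The other Nek2 probe set above the filter gave -0.07, and the other Kif11 probe sets, dimmer still, gave 0.81 and 0.69. Prc1, a bundler of the central spindle, gave 0.71 (adjusted p = 0.452), and Espl1 (separase) gave 0.52 (adjusted p = 0.676). Espl1 read 241 and 152 in control livers, on average under the filter level. It was therefore tested only through its signals in treated livers. The spindle protein gene Nusap1, under the filter, gave 1.59 with the floor. It read 184 and 44.4 in control and 360 and 298 in treated livers. Its other probe set gave 0.10, higher at day 7 and lower at day 10. The mean signal passed 200 only through treated livers for Nusap1 (114 in control, 329 in treated) and only through control livers for Kif11 (259 and 161). Over 2-fold apart in 1 direction on both days were 3 of the 108 genes, Mcm10, Spc24 and Ube2c, against 3.16% of all named genes. Ube2c, an enzyme of cyclin destruction named after its values were seen, read 59.0 and 31.1 in control and 190 and 343 in treated livers.

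Markers of the other cells in the liver differed beside these values. All 12 macrophage markers were higher in treated livers on both days, 3 of them past the test, and their summed signal was 12111 to 21440 in control and 48906 to 49701 in treated livers. Neutrophil markers summed to 1855 to 2154 in control and 6627 to 7494 in treated livers, with 2 of 6 past the test. S100a8 and S100a9, which passed, carried most of the higher sums. S100a8 read 388 and 305 in control and 3353 and 3656 in treated livers. Csf3r and Mmp8 were higher without overlap and without passing, whereas Mmp9 (-0.44) and Cxcr2 (-0.28, under the filter) overlapped. Myeloid precursor markers summed to 2697 to 2804 in control and 5451 to 8040 in treated livers. Of the 8 markers 1 passed, Prtn3, at 44.2 and 49.2 in control and 1541 and 4544 in treated livers, whereas the precursor gene Mpo read 474 to 607 on all arrays. Hepatocyte markers summed to 374428 to 390367 in control and 384301 to 466128 in treated livers, with 0 of 9 past the test.

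The remaining marker lists were less clearly apart. B and plasma cell markers summed to 4900 to 7092 in control and 11963 to 13866 in treated livers, with 1 of 7 past the test. Jchain, which passed, and Ighm carried the higher sums, whereas Cd79b, Ms4a1 and Pax5 were lower in treated livers without overlap and without passing. In control livers S100a9, Prtn3 and Jchain were on average under the filter level, so that these 3 were tested only through their signals in treated livers. Sums overlapped for erythroid markers (6729 to 7772 against 7619 to 7824), T and NK cell markers (2715 to 2776 against 2755 to 3511), endothelial markers (7797 to 8978 against 8014 to 11465) and cholangiocyte markers (996.5 to 1080 against 569.8 to 1289), with 0 past the test in each. Erythroid members lay in opposite directions. Slc4a1, under the filter, was at least 8.06-fold higher in treated livers at day 7 and at least 8.88-fold at day 10. Tfrc was 2.43-fold and 2.80-fold higher and Alas2 3.81-fold and 1.89-fold lower, while Hba-a1, Epor and Klf1 overlapped. Stellate cell markers summed to 7428 to 7738 in control and 5934 to 6541 in treated livers, with 0 past the test. Of these, Col1a1, Col1a2 and Acta2 were lower without overlap. Pdgfrb, under the filter, was higher without overlap (0.50), and Col3a1, Lrat, Des and Reln overlapped. The part of these cells in the cell cycle values was not tested. In RNA from whole liver, fewer cells of a type and less RNA per cell cannot be told apart.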

How the data were processed

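Pooled liver RNA of 2 groups at 2 days was measured on 4 arrays. The authors' deposited values are linear intensity (signal) values made with MAS5, per the submitters' processing notes, version not given in the sources used here. On each array the mean, with the outer 2% on both sides removed, was 500. Detection calls were not used here. Of 45101 probe sets, 34945 carried a single symbol in GEO's platform annotation, 99.4% of them matched in RefSeq.

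Signals under the 25th percentile (64.7) were set to it and log2 was taken. A fold from a signal at this floor is given as "at least". Each gene is its brightest probe set by mean log2. The 11993 genes with a mean above the median probe set (signal 204) were tested together with limma 3.58.1 in R 4.3.3 (trended prior variance, two-sided p-values with Benjamini-Hochberg adjustment at 0.05, 2 residual degrees of freedom). The step was tested on simulated data. Single days have 1 array per side and no test.

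Listed genes, the wider lists, markers, motifs and alternatives were chosen with earlier results of these data known. All 35 listed genes are named. Of each wider list, those named are the 3 highest and 3 lowest by the smaller daily difference, among genes of 1 sign and a mean signal above 200. Figures used Python 3.11.15 and matplotlib 3.10.9.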

Additional observations from a re-analysis of the deposited data

Results flagged for a closer look

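The 34 listed and 108 wider genes measured held 5 whose treated minus control difference was over 2-fold in opposite directions at day 7 and day 10. Of these only Cdk1 is a listed gene. Each day has 1 array per side, so that the difference between the days was not tested, and 1.09% of all named genes showed such a pair. For Cdk1 the day 10 minus day 7 difference was -2.28 with the floor (1.04 at day 7, -1.24 at day 10), with no signal above 200. An array on each day was under the floor, so that these sizes are lower bounds. For the inhibitor gene Cdkn1c it was -2.85, from 83.9 and 239 in control and 267 and 105 in treated livers. For Tk1, thymidine kinase of S phase, it was -3.17, from 219 and 453 in control and 582 and 134 in treated livers. For the repressive E2F gene E2f8 it was 2.97, from 412 and 144 in control and 151 and 414 in treated livers. For Tacc3, a spindle gene, it was at least 4.18, from 457 and 56.0 in control and 50.8 and 167 in treated livers. In all 5 the control arrays were themselves over 2-fold apart.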

How the results depend on the processing

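No listed gene passed the test under any of the alternatives run, which were quantile normalization, equal medians, 3 other floors, 2 other filters, the mean of probe sets, no trend, day as a block, an adjusted p under 0.1 and leaving out each array. The lowest adjusted p of a listed gene was 0.0560, without the day 10 treated array, and 0.335 with day as a block. The labels carry no replicate numbers, and the fit with day as a block is the paired analysis of the arrays of a day. Over all genes tested the number passing was 79, with 24 and 26 when a control array was left out, 330 and 466 when a treated array was, 42 to 112 under the alternatives that kept all arrays and a filter, and 0 of 18193 in limma with no filter (1919 at an unadjusted p under 0.05). The G1 median was 0.11 with the mean of probe sets and -0.17 to 0.087 leaving out an array. The mitotic median was 0.35 with the floor at the 10th percentile or none, and 0.00 to 0.17 leaving out an array.

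Counts past 2-fold moved with the floor and the size rule. At day 7 higher genes numbered 4 with the lower floor or none, 1 with the 40th percentile, 8 at 1.5-fold and 1 at 3-fold; lower genes numbered 6 at 1.5-fold and 0 at 3-fold. At day 10 higher genes numbered 5 with the lower floor, with none and at 1.5-fold, 1 with the 40th percentile and at 3-fold, and 0 with the mean of probe sets; lower genes numbered 0 with the 40th percentile, 5 at 1.5-fold and 0 at 3-fold.

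Genes whose sign changed include the following, with no reversed value passing. Mcm5 gave 0.028 with quantile normalization and 0.012 with equal medians. Other probe sets gave 0.97 for Ccnd2, 0.41 for Cdk6, 0.16 for Mcm7, 0.016 for Ccna2, -0.22 for Cdc20, -0.29 for Rfc1 and 0.93 for Gins3. The mean of probe sets gave -0.17 for Rfc1, 0.66 for Rrm2 and 0.11 for Cdkn1b. With no floor Mcm6 gave 0.094. Leaving out an array, ranges were -0.50 to 0.010 for Ccnd2, -0.25 to 0.14 for Cdk6, -0.29 to 0.010 for Cdkn1b, -0.79 to 0.21 for Mcm4, -0.032 to 0.022 for Mcm5, -0.30 to 0.086 for Rrm1, -0.74 to 0.57 for Rrm2, -0.37 to 0.17 for Ccna2 and -0.25 to 0.30 for Cdc20. Among genes under the filter, ranges held both signs for E2f1 (-0.10 to 1.72), Tyms (-0.22 to 0.96), Cdk1 (-0.72 to 0.52), Aurkb (-0.55 to 1.54) and Mcm6 (-0.52 to 0.16). The cause was not tested. Other probe sets and the wider genes were added after seeing the data. Of 15 other probe sets above the filter 10 kept the sign of the brightest.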
